A study of Macaca mulatta with 8 samples.

Results

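Cluster 7 was the most populous of the 6 clusters that the authors filed under conventional CD4 T cells (Tconv) in a single-cell RNA sequencing study of rhesus macaque blood. Its members were all cells carrying the cluster number 7 in the authors' deposited cell annotation. They numbered 8576 of 25397 cells, or 49.8% of the 17212 Tconv cells, and were set against the 8636 Tconv cells of clusters 5, 6, 8, 9 and 10, called here the other Tconv cells. Because the clusters were made from the same counts, every difference between cluster 7 and the other Tconv cells is given as a description, with no test.

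Conventional CD4 T cells leave the thymus as naive cells, which circulate through lymph nodes and are kept quiescent by transcription factors such as TCF7 and LEF1. After meeting antigen they become memory or effector cells, which raise S100 proteins, annexins and integrins and may take on helper or cytotoxic programmes. IL7R, the interleukin 7 receptor alpha chain whose surface protein is CD127, supports the survival of resting conventional cells and is low on regulatory T cells (Tregs), which instead carry much CD25, the interleukin 2 receptor alpha chain encoded by IL2RA.

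The series followed Tregs after adoptive transfer. Blood mononuclear cells were frozen, thawed on the same day for all libraries and enriched for CD4-positive cells. They were then sorted, for day 20 and for day 3, into CD127-positive CD25-positive cells, CD25high CD127low cells with the surface phenotype of endogenous Tregs, CFSE-positive cells (a dye, taken here from the series title to mark the transferred cells) and cells positive for CD127 but not CD25, as conventional cells are. The sorts other than the CFSE-positive sort were gated on CD3 and CD4. The labels name neither the animal, its age nor a treatment behind any library. There was a single library for a given sort and day, hence no replicates and no p-values, and library, sort and day cannot be told apart within a single contrast.

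Values are CPM (counts scaled to 1000000 per class and library) of the UMI counts, which count captured RNA molecules, summed over the cells of a class in a library. Ratios are given as log2 of CPM + 10 on both sides, and this scale makes the differences of low genes look smaller. Cluster 7 held 1704000 to 5983847 UMIs in each of the 6 libraries of the sorts other than the CFSE-positive one, and 3 UMIs corresponded to 0.501 to 1.76 CPM there. Only 31 and 21 cluster 7 cells came from the CFSE-positive sort on day 20 and day 3, under the minimum of 50 cells for a comparison. The median cluster 7 cell had 2500 UMIs and 789 genes, against 2374 UMIs and 740 genes in the other Tconv cells. A cell barcode also found in another library was carried by 261 cluster 7 cells. A gene was called higher or lower where it was at least 2-fold different in the same direction in every compared pair of libraries, with at least 50 CPM on 1 side. Intervals are exact 95% intervals and cover counting error only.

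Cluster 7 carried T cell and conventional CD4 markers and little FOXP3. With every cell thinned to 1000 UMIs, a UMI of CD3D, a chain of the T cell receptor complex, was found in 71.2% of cluster 7 cells, against 64.9% of the other Tconv cells. CD4 itself was captured poorly, in 0.502% of cluster 7 cells and 0.440% of the other Tconv cells. CD40LG, the helper ligand that activates B cells, averaged 77.4 CPM over the 6 libraries in cluster 7, against 26.0 CPM in cells of the authors' endogenous Treg class. FOXP3, the lineage factor of Tregs, averaged 6.91 CPM in cluster 7, against 104 CPM in the endogenous Treg class and 196 CPM in the transferred Treg class. Summed over the 2 CD8 T cell markers in the table, cluster 7 had at most 0.799 CPM in any compared library. Of 12 B cell markers 5 were at 0 in cluster 7, and the sum was 18.3 to 32.2 CPM, against 20.5 to 42.7 CPM in the other Tconv cells. Of 15 monocyte markers 2 were at 0, and the sum was 14.4 to 27.6 CPM, against 28.3 to 111 CPM.

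IL7R, the marker attached to cluster 7, was at much the same level in the other Tconv cells and lower in the Treg classes. It averaged 824 CPM in cluster 7 (535 to 1020 CPM over the libraries), against 309 CPM in the endogenous Treg class (145 to 569 CPM) and 14.0 CPM in the transferred Treg class. The lowest, median and highest levels of IL7R over the 6 libraries were 535, 880 and 1020 CPM in cluster 7, against 656, 786 and 1116 CPM in the other Tconv cells. After thinning to 1000 UMIs, 53.7% of cluster 7 cells (52.6 to 54.7%) had an IL7R UMI, against 51.5% of the other Tconv cells (50.4 to 52.5%). Without thinning the shares were 79.3% and 77.1%. The log2 ratio ran between -0.29 and 0.28 and was above 0 in 2 of 6 libraries. The mean level was highest in cluster 9 at 1119 CPM, then 824 CPM in cluster 7, 769 CPM in cluster 10, 722 CPM in cluster 5, 646 CPM in cluster 8 and 546 CPM in cluster 6. The library ranges of clusters 7, 10, 5, 8 and 6 overlapped, and so did those of clusters 9 and 7.

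Cluster 7 made up the larger part of the Tconv cells in the CD25-positive sort and a smaller part in the CD25-negative sort. In the CD127-positive CD25-positive libraries it held 60.4% of the Tconv cells on day 20 (59.0 to 61.9%) and 65.3% on day 3 (63.5 to 67.2%). In the CD25high CD127low libraries it held 45.7% on day 20 (43.0 to 48.4%) and 60.8% on day 3 (58.7 to 63.0%). In the CD127-positive CD25-negative libraries it held 35.2% on day 20 (33.7 to 36.8%) and 32.2% on day 3 (30.5 to 33.9%). The gates set these shares, so no order between sorts is read as a change in the animal. As a share of all sequenced cells, cluster 7 was 56.6% and 59.2% of the CD127-positive CD25-positive libraries on day 20 and day 3, and 2.70% and 0.507% of the CFSE-positive libraries. The CD127-positive CD25-positive library of day 20 alone gave 2689 cells, or 31.4% of cluster 7.

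**Figure D1:**
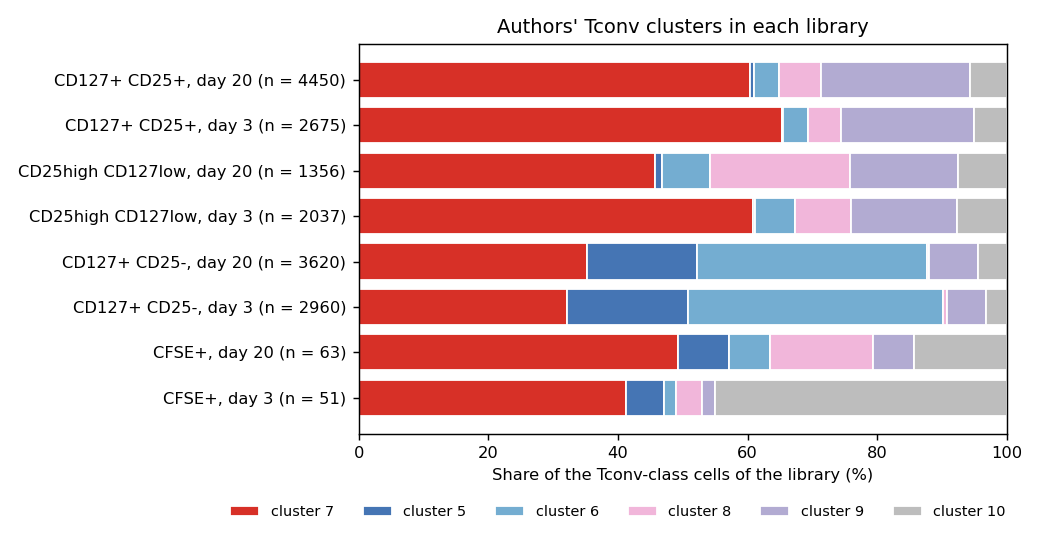
Share of each library's Tconv cells (x axis, percent) in each of the authors' 6 Tconv clusters, with the number of Tconv cells beside the library's name. Cluster 7, in red at the left of each bar, runs from 32.2% of the CD127-positive CD25-negative cells of day 3 to 65.3% of the CD127-positive CD25-positive cells of day 3.

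What surrounded cluster 7 also differed by sort. Among the other Tconv cells of the CD127-positive CD25-negative sort, clusters 5 and 6 had 612 and 1289 cells on day 20 and 549 and 1168 cells on day 3. In the CD127-positive CD25-positive sort the largest of the others was cluster 9, with 1023 cells on day 20 and 547 cells on day 3. A ratio of cluster 7 to the other Tconv cells therefore compares it with a different mixture in each sort, and the lowest and highest ratio over the libraries is given beside each median.

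Against the other Tconv cells, few genes were called in cluster 7, and those were lower. Of 1518 genes with enough counts, 0 were called higher (0.0%) and 4 were called lower (0.264%), and these shares describe how the authors divided the cells. The 4 genes were S100A4, HOPX, GNLY and ISG15. S100A4, a calcium-binding protein typical of memory cells, had a lowest, median and highest level of 324, 498 and 596 CPM in cluster 7, against 2242, 2823 and 3416 CPM in the other Tconv cells. No library of cluster 7 came near the lowest value of the other Tconv cells, and the median log2 ratio was -2.43 (-3.13 to -2.17). HOPX, a homeodomain protein of effector and memory T cells, had 12.8, 17.9 and 35.8 CPM in cluster 7, against 188, 219 and 223 CPM. GNLY, the cytotoxic granule protein granulysin, had 3.28, 10.1 and 26.3 CPM, against 53.9, 125 and 273 CPM. ISG15, a ubiquitin-like protein induced by interferon, had 25.9, 39.7 and 46.1 CPM, against 89.4, 277 and 446 CPM. For all 4 genes the groups did not overlap over the 6 libraries, and the share of all 1518 genes without overlap is not given here.

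The high levels of these 4 genes in the other Tconv cells lay in different clusters. GNLY averaged 1205 CPM in cluster 5 and 1.40 CPM in cluster 6, on either side of 11.9 CPM in cluster 7. The cluster 5 levels come from the 2 CD127-positive CD25-negative libraries only, as cluster 5 had 5 to 22 cells in the remaining compared libraries. GNLY was also called lower in cluster 7 against cluster 8, in the 4 libraries compared there. ISG15 averaged 1675 CPM in cluster 10, while the remaining Tconv clusters lay between 24.2 and 56.0 CPM with cluster 7 at 36.5 CPM. S100A4 and HOPX were highest in cluster 5, at 9420 and 928 CPM, and lowest in cluster 6, at 68.6 and 2.92 CPM.

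Below the 2-fold line, further genes were lower in cluster 7 in 6 of 6 libraries. Interferon-induced genes among them were MX1, a GTPase that blocks viruses (median log2 ratio -1.83, range -2.38 to -0.74), IFI6 (-1.15, -1.72 to -0.36) and BST2, the tethering factor that retains virus particles at the cell surface (-0.72, -0.96 to -0.54). APOBEC3H, a cytidine deaminase that restricts retroviruses, stood at -0.88. ID2, an inhibitor of E protein transcription factors, stood at -0.73 (-1.34 to -0.60). The tetraspanin CD63 (-0.75), the short-chain dehydrogenase DHRS7 (-0.74), the sodium pump subunit ATP1B3 (-0.56), the lysosomal carboxypeptidase CTSA (-0.47) and the chloride channel protein CLIC1 (-0.46) were further named genes with lower levels.

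The genes higher in cluster 7 in 6 of 6 libraries included a co-stimulator, an integrin chain and a naive transcription factor. APOD, a lipid-carrying lipocalin, had 64.1, 123 and 140 CPM in cluster 7, against 22.4, 25.3 and 41.5 CPM in the other Tconv cells, and the groups did not overlap. Its median log2 ratio was 1.97, but it was only 0.59 in the lowest library, so it was not called. ITGA4, the integrin alpha 4 chain that binds vascular addressins, had 93.0, 103 and 123 CPM, against 34.1, 48.3 and 70.1 CPM (median log2 ratio 0.91). ICOS, the co-stimulatory receptor of activated and follicular helper cells, had 56.8, 63.3 and 79.2 CPM, against 25, 31.4 and 34.9 CPM (0.87). TRIB2, a pseudokinase, had 76.9, 100.01 and 118 CPM, against 40.4, 50.1 and 56.6 CPM (0.85). For these 4 genes every library of cluster 7 lay above every library of the other Tconv cells. They were picked for a steady ratio over the same libraries, and the share of all 1518 genes without overlap is not given here.

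LEF1 had 202, 228 and 292 CPM in cluster 7, against 87.5, 117 and 209 CPM in the other Tconv cells, so its ranges overlapped although the ratio was above 0 in each library. NUCB2, a calcium-binding nucleobindin, likewise overlapped, with 78.3, 92.2 and 121 CPM, against 16.3, 25.5 and 88.9 CPM. Smaller median log2 ratios, from 0.39 to 0.71, were found for the DNA-binding protein ARID5B, the coatomer subunit COPZ1, the purine synthesis enzyme ADSL, the actin-binding proteins CORO1B and COTL1, the calcium sensor HPCAL1, and C20H16orf13, FGFR1OP2 and LST1.

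**Figure D2:**
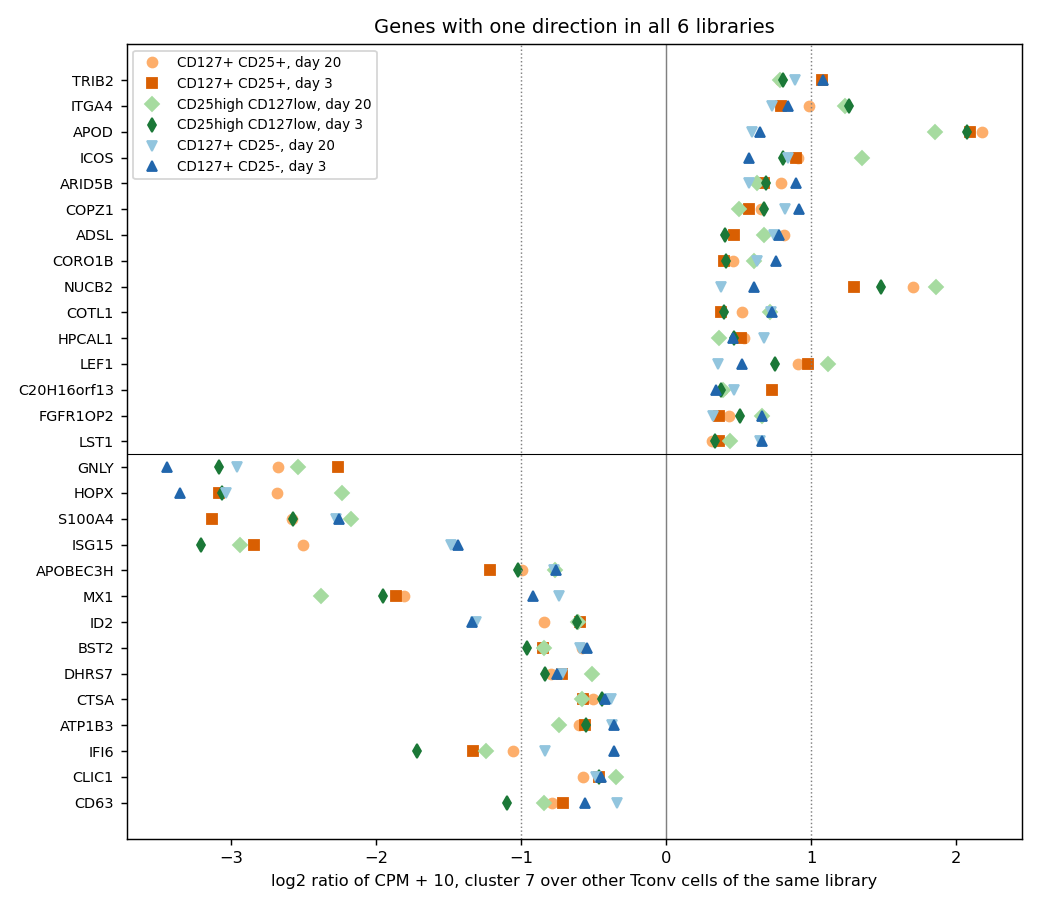
log2 ratio of CPM + 10 in cluster 7 over the other Tconv cells of the same library (x axis) for 15 higher and 14 lower genes with the same sign in all 6 libraries (rows), 1 symbol per library. Dotted lines mark a 2-fold difference. GNLY, HOPX, S100A4 and ISG15 lie beyond it in every library, and APOD, NUCB2 and LEF1 lie farther right in the CD25-positive and CD25high sorts than in the CD25-negative sort.

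A pair of receptor genes too low for the 50 CPM minimum had at least a 2-fold higher level in each library. CXCR5, the chemokine receptor that draws cells to B cell follicles, had 29.9, 29.3 and 22.2 CPM in cluster 7 of the CD127-positive CD25-positive, CD25high CD127low and CD25-negative CD127-positive libraries of day 20, against 5.0, 4.33 and 1.39 CPM in the other Tconv cells. On day 3 CXCR5 had 26.2, 22.8 and 16.0 CPM in cluster 7 in the same order of sorts, against 4.2, 4.96 and 1.66 CPM. The median log2 ratio of CXCR5 was 1.38 (1.13 to 1.5). CCR9, a chemokine receptor of gut-homing T cells, had a median log2 ratio of 1.65 (1.35 to 2.12). CCR9 averaged 37.5 CPM in cluster 7, against 14.3 CPM in cluster 10 and at most 6.80 CPM in the remaining Tconv clusters. Both genes were named after their values were seen, because they were the 2 genes called higher once the expression minimum was dropped. That setting takes in every gene with a UMI in each library, more than the 1518 above. The share of the 2 among them is not given here.

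By gene list, the median log2 ratio of the memory, cytotoxic, interferon and Th17 lists was below that of all tested genes, which was 0.03. Of all tested genes 0.264% were called lower and 0.0% higher, so 0 called members in a list of this size says little about the list. Of 25 memory and effector genes with a row, 21 passed the list minimum of 20 CPM, 2 were called lower (S100A4 and HOPX) and the list's median log2 ratio was -0.56. Other members were lower without being called, such as the galectin LGALS3 (-0.99) and the annexin partner S100A10 (-0.82), both with ratios near 0 in the CD25-negative sort. Of 16 cytotoxic genes 9 were measured, GNLY was called lower and the median was -0.84. Only 4 of the 16 reached the list minimum in cluster 7, and the rest of the 9 passed through the other Tconv cells alone. Members that pass in this way pull a median down, so it does not describe the whole list. GZMB, the granule protease granzyme B, ran from -5.46 to -1.05. Of 33 interferon response genes 24 were measured, ISG15 was called lower and the median was -0.67. Here too, 17 of the 33 reached the list minimum in cluster 7, and the rest of the 24 passed through the other Tconv cells alone. The interferon median differed by the cluster compared, at 0.22 against cluster 6, -0.03 against cluster 8, -0.13 against cluster 9, -0.38 against cluster 5 and -1.87 against cluster 10. Per cell, interferon genes took a median of 0.484% of UMIs in cluster 7, against 0.478% in the other Tconv cells, and 1.25% in cluster 10 alone. By library this share was higher in cluster 7 in the CD127-positive CD25-negative sort (0.509% on day 20 and 0.489% on day 3, against 0.470% and 0.442%) and lower in the remaining 4 libraries. The 4 measured of 10 Th17 genes had a median of -1.06, with KLRB1 at -1.74 and CCR6, the chemokine receptor of Th17 cells, at -1.65, and 0 of the 4 were called. The 12 NK cell markers summed to 17.0 to 60.03 CPM in cluster 7, against 97.6 to 686 CPM, and 4 of them were at 0 in cluster 7. Their part in the difference was not tested.

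The naive and quiescent list, with 17 of 22 members measured, had a median of 0.10, and 0 members were called. TCF7 was at 0.55 and LEF1 at 0.83, whereas BACH2, a repressor that keeps T cells from effector differentiation, was at -0.76. Lists for T cell receptor signalling (19 measured, median 0.15), glycolysis (8 measured, 0.07), oxidative phosphorylation (28 measured, 0.02), actin cytoskeleton (29 measured, 0.03), proliferation (6 measured, -0.03) and Treg core genes (9 measured, -0.05) had 0 called members in either direction. For Tfh genes 3 of 11 were measured, and their median of 0.87 was the value of ICOS, already named above. It therefore adds nothing to that gene. Against cluster 10 alone the median of the Tfh list was 0.06. A passing member had to reach the minimum in cluster 7 or in the other Tconv cells, so these medians are not medians of whole lists.

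Set against single clusters, cluster 7 shared its naive transcription factors with cluster 6 and sat between cluster 6 and clusters 8 and 9 in memory genes. LEF1 averaged 238 CPM in cluster 7, against 240 CPM in cluster 6, 98.2 CPM in cluster 9, 55.6 CPM in cluster 8 and 21.4 CPM in cluster 5. TCF7 averaged 202 CPM in cluster 7, against 170, 125, 98.5 and 27.5 CPM in clusters 6, 9, 8 and 5. S100A4 averaged 489 CPM in cluster 7, against 68.6 CPM in cluster 6, 3322 CPM in cluster 8, 4207 CPM in cluster 9 and 9420 CPM in cluster 5. ITGB1, the integrin beta 1 chain, averaged 260 CPM in cluster 7, against 77.3, 623 and 690 CPM in clusters 6, 8 and 9. The library ranges of LEF1 and TCF7 overlapped between clusters 7 and 6, and those of S100A4 did not overlap between cluster 7 and any of clusters 6, 8, 9 and 5.

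Against cluster 6, 14 of 1487 genes were called higher in cluster 7 (0.941%) and 2 were called lower (0.134%). The higher genes held 5 of the 20 measured memory genes, namely S100A4, ANXA1, LGALS3, S100A10 and S100A11, whose median log2 ratios lay between 1.35 and 2.72, and 0 memory genes were called lower. The list's median was 1.17. Among the lower genes was PLAC8 (-2.04), with a median of 160 CPM in cluster 7, against 693 CPM in cluster 6. Annexin ANXA1 averaged 649 CPM, against 221 CPM.

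Against cluster 9, 3 of 1581 genes were called higher in cluster 7 (0.19%), namely APOD, NUCB2 and OTUD5, and 13 were called lower (0.822%). Of 22 measured memory genes 8 were among the lower ones, with a list median of -0.91. LMNA, the nuclear lamin A gene, was at -3.18, S100A4 at -3.02, HOPX at -3.45, CCR6 at -2.86 and ITGB1 at -1.38.

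Against cluster 8, in the 4 libraries with at least 50 cells of both, 17 of 1573 genes were called higher in cluster 7 (1.08%) and 23 lower (1.46%). Among the higher ones were ICOS (2.29), ITGA4 (2.63), APOD (2.85) and LEF1 (1.82). Among the lower ones were LMNA (-3.67) and S100A4 (-2.63). Against cluster 5, in 2 CD127-positive CD25-negative libraries, 50 of 2034 genes were called higher (2.46%) and 160 lower (7.87%). The lower genes included 10 of the 14 measured cytotoxic genes, with GZMB at -7.45 and NKG7 at -5.71. Most of the 14 were measured through cluster 5 alone, as 4 cytotoxic genes reached the list minimum in cluster 7. The higher genes included LEF1 (3.28) and TCF7 (2.57).

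Against cluster 10, 0 of 1544 genes were called higher in cluster 7 (0.0%) and 34 were called lower (2.2%). Of the 31 measured interferon response genes 20 were called lower, with ISG15 at -5.15, MX1 at -4.15 and IFIT1, an RNA-binding antiviral protein, at -4.05. In cluster 7 itself 17 genes of that list reached the list minimum, and the rest of the 31 passed through cluster 10 alone. The remaining genes called lower are not on that list and are not named here. In the memory and naive lists the 2 clusters lay close. The memory list had a median of 0.21 and the naive list 0.10, with 0 called in each, and LEF1 averaged 238 CPM in cluster 7, against 209 CPM in cluster 10, and S100A4 489 CPM, against 515 CPM.

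**Figure D3:**
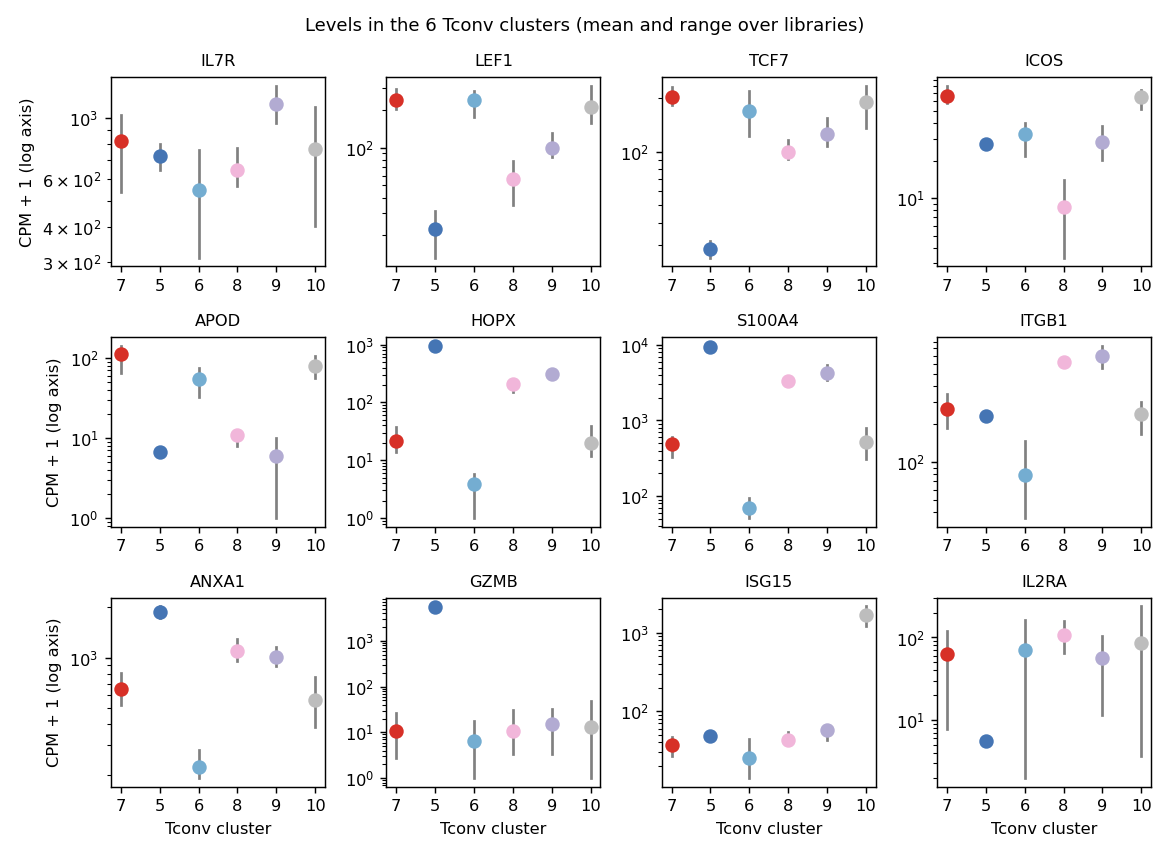
Level of 12 genes (y axis, CPM + 1, log axis, a separate scale for each gene) in the authors' 6 Tconv clusters (x axis). Points are means over the libraries with at least 50 cells of the cluster and lines run from the lowest to the highest library (6 libraries, but 4 for cluster 8 and 2 for cluster 5). Cluster 7 is level with cluster 6 for LEF1, lies between clusters 6 and 9 for S100A4, ITGB1 and ANXA1, and has no high level of GZMB or ISG15.

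Over all genes at 50 CPM on 1 side, the Spearman correlation of cluster 7 with cluster 9 was 0.922 and 0.917 in the CD127-positive CD25-positive libraries of day 20 and day 3, and with cluster 6 it was 0.901 and 0.891. In the CD127-positive CD25-negative libraries it was 0.910 and 0.884 with cluster 9, and 0.908 and 0.898 with cluster 6. In the CD25high CD127low libraries it was 0.882 and 0.895 with cluster 9, 0.871 and 0.892 with cluster 6, and 0.906 and 0.906 with the endogenous Treg class, which was the highest of the classes compared there. With cluster 10 it lay between 0.860 and 0.904 over the 6 libraries, with cluster 8 between 0.863 and 0.882 over 4. With cluster 5 it was 0.776 and 0.775 in the CD127-positive CD25-negative libraries. These correlations are across 1700 to 2249 genes within 1 library, share its depth and depend on the number of cells in the smaller cluster, so they are descriptions only.

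Cell by cell, the memory gene content of cluster 7 lay between those of cluster 6 and clusters 8, 9 and 5. The memory and effector list took a median of 0.667% of a cluster 7 cell's UMIs, with 0.333% at the tenth and 1.33% at the ninetieth percentile. Cluster 10 was closest, with a median of 0.541% (0.206% and 1.22% at the same percentiles). The median was 0.191% in cluster 6 (0.0662% and 0.397%), 1.69% in cluster 8, 1.77% in cluster 9 and 2.68% in cluster 5. The standard deviation over cells was 0.515 percentage points in cluster 7, against 0.148 in cluster 6, 0.491 in cluster 10, 0.722 in cluster 8, 0.836 in cluster 5 and 0.916 in cluster 9. The naive list took a median of 0.437% in cluster 7, against 0.432% in cluster 6, 0.412% in cluster 10, 0.395% in cluster 9, 0.345% in cluster 8 and 0.164% in cluster 5. By library the memory median of cluster 7 stayed between 0.623% and 0.682%. These shares used all UMIs of a cell without thinning, so the depth of the cells enters their spread.

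Among the 1442 genes at 50 CPM or more in cluster 7 in each of the 6 libraries, S100A4 had the highest ratio of variance to mean between cells. After thinning to 1000 UMIs, its variance was 5.55 times its mean (median of 6 libraries, 3.66 to 8.46), while the median over these genes was 1.02. HBB, which did not meet that minimum on day 20, had day 3 ratios of 253 in the CD127-positive CD25-positive library, 452 in the CD25high CD127low library and 324 in the CD25-negative library. Of 8520 thinned cluster 7 cells from the 6 libraries, 6859 (80.5%) had no S100A4 UMI and 273 (3.20%, 2.84 to 3.60%) had 5 or more. The shares with 5 or more were 3.54%, 4.68% and 3.38% on day 20 in the CD127-positive CD25-positive, CD25high CD127low and CD127-positive CD25-negative libraries, and 1.43%, 3.87% and 3.46% on day 3. The library of CD127-positive CD25-positive cells of day 3 was the lowest (interval 0.928 to 2.1%). This interval covers the counting of cells within 1 library, and the spread between replicate libraries was not measured. In cluster 9, 961 of 2576 cells (37.3%) had 5 or more S100A4 UMIs, and in cluster 6, 0 of 2962. Next in variance over mean came TMSB4X (2.38), ACTB (2.29) and the interferon-induced IFI27 (2.28).

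Within cluster 7, very few genes that met the 50 CPM minimum were called between the sorts. IL2RA, whose protein the sort used, had 67.3 and 58.9 CPM in the CD127-positive CD25-positive libraries of day 20 and day 3, and 119 and 112 CPM in the CD25high CD127low libraries, against 9.55 and 6.80 CPM in the CD127-positive CD25-negative libraries. ID2 had 82.1 and 106 CPM in the CD127-positive CD25-positive libraries and 54.6 and 114 CPM in the CD25high CD127low libraries, against 265 and 339 CPM in the CD127-positive CD25-negative libraries. For the CD127-positive CD25-positive over the CD127-positive CD25-negative sort, IL2RA was the only one of 1663 genes called higher (0.0601%) and ID2 the only one called lower (0.0601%). For the CD25high CD127low over the CD127-positive CD25-negative sort, the same pair were the only ones of 1714 genes (0.0583% each). Both contrasts use the same CD25-negative libraries. By list, the 4 measured of 16 cytotoxic genes had median log2 ratios of -1.24 in the first contrast and -1.05 in the second. Treg core genes, with IL2RA among them, were at 0.16 and 0.52. Memory genes were at -0.13 and 0.04, and all tested genes at -0.03 and -0.02.

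In the other Tconv cells the same contrasts called 22 higher and 17 lower of 1672 genes (1.32% and 1.02%), and 18 higher and 13 lower of 1717 genes (1.05% and 0.757%). There the clusters present differed between sorts, as given above. The standard deviation of the log2 ratio of CD127-positive CD25-positive over CD127-positive CD25-negative cells was 0.22 on day 20 and 0.19 on day 3 over the 1663 genes in cluster 7. It was 0.42 on both days over the 1672 genes in the other Tconv cells. The difference between these spreads was not tested. ITGB1 was at a log2 ratio of -0.10 on day 20 and -0.53 on day 3 in cluster 7, against 1.84 and 1.95 in the other Tconv cells, where it was called. LMNA, under the 50 CPM minimum in cluster 7, had 0.41 and -0.33 there, against 2.88 and 2.59 in the other Tconv cells.

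IL7R in cluster 7 was lower in the sort gated for low CD127. It had 613 and 535 CPM in the CD25high CD127low libraries of day 20 and day 3, against 1013 and 883 CPM in the CD127-positive CD25-negative libraries, log2 ratios of -0.72 and -0.71. In the CD127-positive CD25-positive libraries IL7R had 1020 and 878 CPM, log2 ratios of 0.01 and -0.01. FOXP3 had 15.3 and 16.6 CPM in the CD25high CD127low libraries, against 0.341 and 0.799 CPM in the CD127-positive CD25-negative libraries. In the other Tconv cells FOXP3 had 18.3 and 18.7 CPM in the CD25high CD127low libraries, against 0.198 and 0.207 CPM.

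**Figure D4:**
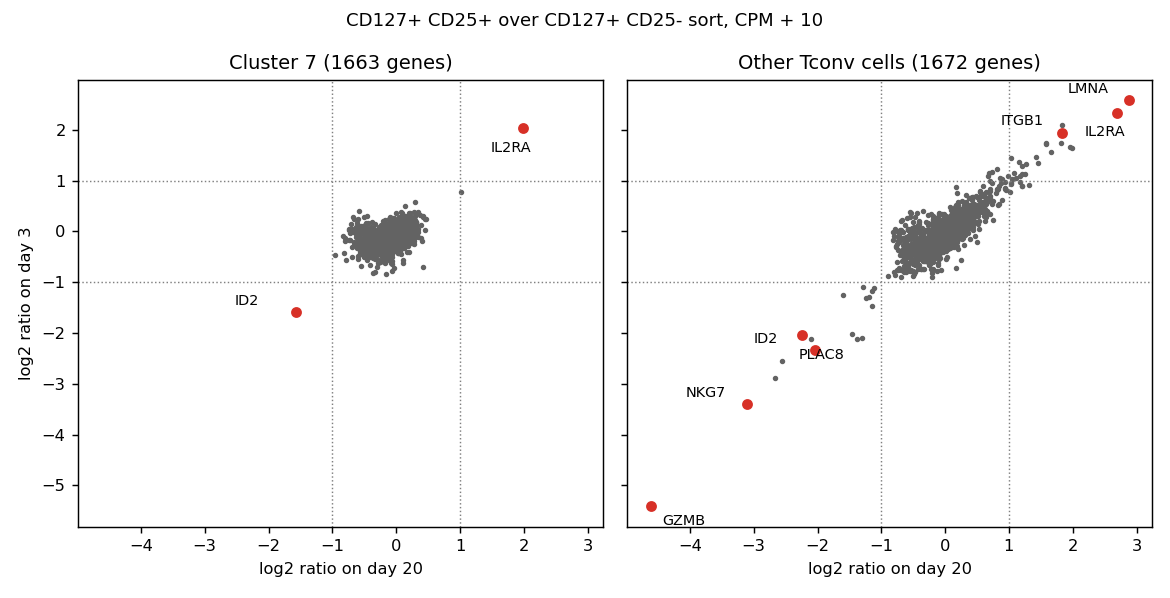
log2 ratio of CPM + 10 of the CD127-positive CD25-positive over the CD127-positive CD25-negative sort on day 20 (x axis) and day 3 (y axis), 1 point per gene, in cluster 7 (left, 1663 genes) and the other Tconv cells (right, 1672 genes). Dotted lines mark 2-fold differences. In cluster 7 only IL2RA and ID2 lie beyond them on both days, while 22 genes above and 17 below do so in the other Tconv cells.

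Between days, 0 of 1647 genes were called higher on day 20 than on day 3 within cluster 7 in all 3 sorts (0.0%), and 1 was called lower (0.0607%), the beta globin gene HBB. In the other Tconv cells 0 of 1584 genes were called in either direction (0.0%). Lowering the line to 1.5-fold added 0 genes in cluster 7. The median log2 ratio over all tested genes was 0.06, the interferon list was at 0.16, the memory list at 0.08 and the naive list at 0.11. CD40LG had 87.4, 81.0 and 106 CPM on day 20 in the CD127-positive CD25-positive, CD25high CD127low and CD127-positive CD25-negative libraries, against 62.1, 47.7 and 79.9 CPM on day 3, higher in each sort but under 2-fold.

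HBB in cluster 7 had 0.501, 0 and 0 CPM on day 20 in the CD127-positive CD25-positive, CD25high CD127low and CD127-positive CD25-negative libraries, against 231, 3939 and 862 CPM on day 3. The day 3 values rested on a handful of cells. Cluster 7 held 12 cells with at least 10 HBB UMIs, all from day 3, with 7 in the CD25high CD127low library, 3 in the CFSE-positive library and 1 in each of the others. They carried 10 to 5512 HBB UMIs each, no other cluster 7 cell had more than 2, and together they held 22259 UMIs, or 89.9% of the HBB UMIs of the whole series. All other clusters held 1 such cell. Without these cells, HBB on day 3 was 25.3, 42.5 and 45.7 CPM in cluster 7 of the 3 sorts, and outside cluster 7 it was 30.8, 36.3 and 44.4 CPM. The median log2 ratio between the days was then -2.39 in place of -6.45, and 0 genes were called lower. HBB dropped out of the call because these day 3 levels were under the 50 CPM minimum. Outside cluster 7, HBB on day 20 was 0, 0.410 and 0.192 CPM in the same order of sorts. The lower level on day 20 was thus also seen outside cluster 7.

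**Figure D5:**
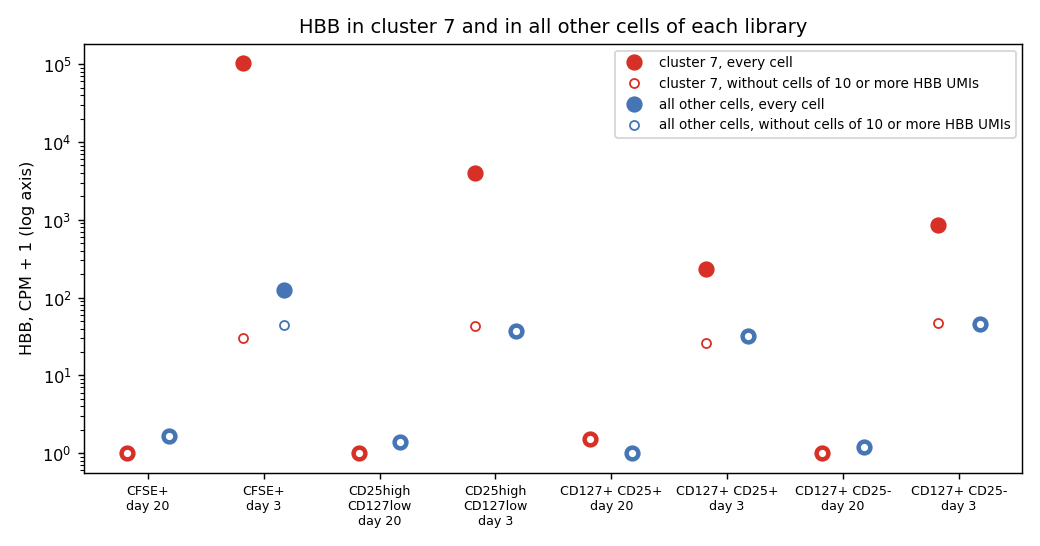
HBB level (y axis, CPM + 1, log axis) in cluster 7 (red) and in all other cells (blue) of each library (x axis), with every cell (filled) and without cells of 10 or more HBB UMIs (open). Cluster 7 stands above the other cells in all 4 day 3 libraries with every cell, up to 102173 CPM in the CFSE-positive library of day 3, and the open symbols of day 3 lie between 25.3 and 45.7 CPM.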

How the data were processed

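Droplet libraries of 8 sorted samples were sequenced by the authors. Per the submitters' processing notes, Cell Ranger 2.1.1 was used. The genome build is not given in the sources used here. As deposited, the table holds whole UMI counts per gene and cell (25397 cells, 16429 genes), and the authors deposited each cell's library, cluster and class, without a stated method. The embedding coordinates the authors deposited, a score per cell with no unit, were not used. Of the count columns, 0 lacked a library. Of 3130 identifiers without a symbol, 309 were named from a reference table.

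Counts were summed per class and library and scaled to CPM, with a pseudocount of 10 CPM. Ratios needed at least 50 cells on both sides. No count model was used for tests, since each sort and day had 1 library. The labels do not say whether libraries of different sorts came from the same animal. Poisson and Clopper-Pearson intervals, at 95%, cover counting error only. No doublet caller was run and no cell was dropped. Doublet-like cells, 247 of them in cluster 7, had at least 3 UMIs of B cell, monocyte, platelet or red cell markers or over 2 times the library's median UMIs, and were left out in an alternative. Detection shares, unless called unthinned, and variance over mean used 1000 UMIs drawn without replacement from each cell, with fixed seeds. The per-cell shares of gene lists used all UMIs of a cell. The calling procedure was tested on simulated data.

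Named genes were the 15 per direction with the same sign in all 6 libraries, at least 50 CPM on 1 side and the largest smallest ratio (up to 8 called genes for days and sorts), without unnamed, ribosomal, mitochondrial and receptor segment genes. List members were added as examples. One gene that met this rule is not reported here. The members and the 36 gene lists were chosen with earlier results of these data known. Beyond the lists named in the text, lists for activation, immediate early, Th1, Th2, helper cytokines, IL-2 and STAT5, homing, co-inhibition, apoptosis, heat shock, metallothioneins, MHC class II and other cell types had 0 members called against the other Tconv cells, except GNLY in the NK cell list. The B cell, CD8 T cell and platelet lists had 0 measured members and the gamma delta list 0 with a row, so none could be called. The metallothionein, monocyte and dendritic cell lists had 1 measured member each. Alternatives were TMM factors (edgeR 4.0.16) and size factors (DESeq2 1.42.0), both for scaling only, other pseudocounts, filters and folds, per-cell means, thinning, and leaving out libraries or cells.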

Additional observations from a re-analysis of the deposited data

Results flagged for a closer look

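The 52 cluster 7 cells of the CFSE-positive sorts entered no comparison. Of 13 genes chosen for a look, 6 stood above the transferred Treg class of the same sorts with counting intervals apart (IL7R, S100A4, LEF1, CD40LG, ID2 and HBB). The classes were made from the same counts and the genes were picked, so this is a description and no test. The share over all genes is not given here, and the intervals cover counting error only. Their IL7R level was 274 CPM (186 to 388, from 31 UMIs in 21 cells), against 12.6 CPM in the transferred Treg class. The 8524 cluster 7 cells of the remaining sorts had 856 CPM of IL7R. S100A4 had 556 CPM (427 to 712, from 63 UMIs in 10 cells), against 273 CPM in the transferred Treg class. On day 20, 35 of these UMIs were in 3 cells, and the interval does not cover such spread between cells. Both days were pooled, with 21 cells on day 3 and 31 on day 20 in cluster 7. The transferred Treg class had 4079 and 1064 cells on the same days. LEF1 had 115 CPM (61.1 to 196), against 52.1 CPM. CD40LG had 53.0 CPM (19.4 to 115, from 6 UMIs), against 1.83 CPM. ID2 had 106 CPM (54.7 to 185), against 22.6 CPM. FOXP3 had 1 UMI in these 52 cells, or 8.83 CPM (0.224 to 49.2), against 235 CPM in the transferred Treg class. BAX, a pro-apoptotic gene, had 327 CPM (230 to 450), against 779 CPM in the transferred Treg class and 106 CPM in the cluster 7 cells of the remaining sorts. IL2RA had 185 CPM (115 to 283), against 577 CPM and 62.3 CPM in the same 2 classes. The authors' finer names put 26 of the 52 cells among transferred naive Tregs, 17 among endogenous naive Tregs, 4 among transferred Tregs in transition and 5 in a class without a descriptive name.

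HBB reached 102173 CPM in the 21 cluster 7 cells of the CFSE-positive sort of day 3, against 101 CPM in the transferred Treg class of the CFSE-positive sorts. Of the 4623 UMIs behind that value, 4622 were in 3 cells, and without them the level was 29.0 CPM.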

How the results depend on the processing

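The 4 genes called lower against the other Tconv cells were the same 4 under TMM factors, size factors, both other pseudocounts, without doublet-like cells and without the HBB-rich cells. The mean of per-cell CPM and thinning each added KLRB1, for 5 lower. Counts that moved by over 1.5 times were these. Without an expression minimum, 2 genes were called higher and 10 lower, of more than 1518 genes, a number not given here. With a minimum of 100 CPM, 2 were lower. At 1.5-fold, 4 were higher and 7 lower. With the other clusters weighted equally, 9 were lower, 3 of them shared with the 4. GNLY was the gene no longer called there, and the added ones were interferon genes. Leaving out each library in turn gave 0 higher and 4 to 5 lower, the fifth being KLRB1 without the CD127-positive CD25-positive library of day 3. Between days, 2 genes were lower without the minimum (HBB and HBQ1) and 0 without the HBB-rich cells, a choice made after seeing the data. There the HBB log2 ratio was -2.39 and its level was under the 50 CPM minimum. For the CD127-positive CD25-positive over the CD127-positive CD25-negative sort, 3 were lower without the minimum (ID2, GZMB and GZMM), and 2 higher at 1.5-fold. For the CD25high CD127low sort, 2 were higher (IL2RA and FOXP3) and 2 lower (ID2 and GZMM) without the minimum. At 1.5-fold 2 were higher and 2 lower there, the second lower gene being IL7R. Day ratios moved by -0.10 under TMM and -0.11 under size factors. Of the values of named genes under alternatives 507 moved by no more than the 95% counting interval of the main ratio and 121 moved further. With the mean over members in place of the median, 88 list values moved by at most 0.2 on the log2 scale and 8 by more. The 1.5-fold line for days and sorts was also added after seeing the data. No paired test was run, since each sort and day had 1 library. Ratios were taken within a library, within a sort or within a day.

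Depth limits the CFSE-positive libraries most, where 3 UMIs are 44.1 CPM on day 20 and 66.3 CPM on day 3.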

Other observations

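The 12 HBB-rich cells of cluster 7 also carried T cell transcripts. Hemoglobin genes made up a median of 46.5% of their UMIs (0.328 to 64.8%), and without them the median was 2474 UMIs, against 2499 in all other cluster 7 cells. CD3D, CD3E and CD3G together gave 1.64 UMIs per 1000 non-hemoglobin UMIs, against 1.48 in all other cluster 7 cells, and 11 of the 12 cells had a CD3 UMI. LTB, the lymphotoxin beta gene, had 2269 per 1000000 non-hemoglobin UMIs (1765 to 2871), against 1935. TCF7 had 263 (114 to 518), against 205. IL7R had 98.6 (20.3 to 288, from 3 UMIs in 1 cell), against 856. S100A4 had 65.8 (7.96 to 238), against 471. HBQ1, the theta globin gene, was concentrated in the same cells, with 5558 of the 6052 UMIs of the series. HBA2 was spread over all Tconv clusters, at 155 CPM in cluster 7 and 135 to 178 CPM in the remaining ones. Whether these cells are droplets with more than 1 cell was not tested.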
